A study of Homo sapiens with 6 samples.

Results

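The proteasome subunit genes of A549, an established cell line from a human lung adenocarcinoma with alveolar epithelial features, were examined on 6 Affymetrix arrays in 3 groups of 2. The list held 34 genes for the core particle and the regulatory particle of the proteasome. A gene was used where a probe set carried its symbol and no other, and its brightest probe set over the 6 arrays gave its value. By this rule 30 of the 34 genes were measured, among 11963 genes with such a probe set in the whole series. The probe sets of PSMA6 carry a second symbol as well, and PSMC5, PSMD7 and PSMD13 were not analysed here.

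The PIAS3 group received a pCMV5 vector that encodes human PIAS3, which attaches SUMO to proteins and is known to block the transcription factor STAT3, and the vector's name points to the strong viral promoter of cytomegalovirus. The STAT3 siRNA group received an siRNA against STAT3. Control cells had EGF and no transfection, per their labels. The series' design text describes serum-free medium and EGF for all 3 groups, whereas EGF appears in the titles of the control samples and in no other title. Cells were seeded for 12 h in medium with 10% serum, and RNA was taken 48 h after transfection. Because the control was not transfected, the effect of transfection and that of the transfected agent cannot be told apart. Nothing in the labels ties the 2 arrays of a group to separate cultures. The spread that a p-value weighs is therefore that of these arrays and may be technical. With 2 arrays per group, precision was limited by their number.

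The proteasome degrades proteins that carry ubiquitin chains. Its core particle is a barrel of stacked rings, with alpha subunits forming the outer rings and the gate, and beta subunits forming the inner rings that hold the proteolytic sites. The regulatory particle caps the barrel: a ring of ATPases and a few further base subunits bind and unfold the substrate, and a lid removes its ubiquitin. Cells that see interferon exchange the catalytic beta subunits for the immunoproteasome subunits PSMB8, PSMB9 and PSMB10. The subunit genes are known to be raised together by NFE2L1 when proteasome activity is short, and STAT3 has been described as an activator of catalytic subunit genes such as PSMB5.

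STAT3 binds the palindrome TTCNNNGAA. The promoters of subunit genes that hold it are shown because the siRNA targets STAT3 and PIAS3 is known to block it. The 250 bases before the annotated start were read for 25 of the 30 measured subunits, from RefSeq on GRCh38.p14. No entry was matched for PSMA7, PSMB1, PSMB6, PSMB7 and PSMD4. A match to TTCNNNGAA, which reads alike on both strands, was found for PSMA2, PSMB5, PSMC4 and PSMD3, or 16.0% of the 25, against 8.09% of all 27305 genes with such a window. For PSMB5 it was found before 1 of 2 annotated starts, with matches 158 and 15 bases before that start. In the other promoters it lay 135 bases (PSMA2), 55 bases (PSMC4) and 94 bases (PSMD3) before the start. The sequences run 5′ to 3′ on the gene's strand, with the matches in capitals. They lie at chr7:42932175-42932424 on the minus strand (PSMA2), chr14:23034901-23035150 on the minus strand (PSMB5), chr19:39970915-39971164 on the plus strand (PSMC4) and chr17:39980557-39980806 on the plus strand (PSMD3).
PSMA2: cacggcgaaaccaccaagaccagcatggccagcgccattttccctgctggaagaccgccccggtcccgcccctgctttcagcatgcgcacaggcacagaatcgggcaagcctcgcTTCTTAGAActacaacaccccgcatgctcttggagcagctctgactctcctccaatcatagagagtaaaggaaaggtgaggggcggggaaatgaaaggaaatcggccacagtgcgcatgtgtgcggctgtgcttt
PSMB5: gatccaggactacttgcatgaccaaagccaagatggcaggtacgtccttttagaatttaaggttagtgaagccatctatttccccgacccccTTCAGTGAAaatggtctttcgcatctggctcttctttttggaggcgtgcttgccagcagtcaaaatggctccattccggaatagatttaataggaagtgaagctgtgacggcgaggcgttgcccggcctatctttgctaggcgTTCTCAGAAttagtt
PSMC4: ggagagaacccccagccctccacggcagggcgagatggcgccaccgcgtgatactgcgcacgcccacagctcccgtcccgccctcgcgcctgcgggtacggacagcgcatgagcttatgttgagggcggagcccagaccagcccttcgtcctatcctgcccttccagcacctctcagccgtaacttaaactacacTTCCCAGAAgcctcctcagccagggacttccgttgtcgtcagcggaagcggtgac
PSMD3: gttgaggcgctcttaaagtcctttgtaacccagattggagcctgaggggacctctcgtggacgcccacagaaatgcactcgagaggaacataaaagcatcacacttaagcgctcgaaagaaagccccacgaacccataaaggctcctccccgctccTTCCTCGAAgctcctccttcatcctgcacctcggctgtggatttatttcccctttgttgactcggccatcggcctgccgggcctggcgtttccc

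Other motifs were searched in the same windows on both strands, each counted whether or not it overlapped another. TGANNNNGC is a loose form of the core of the antioxidant response element that NFE2L1 and NFE2L2 bind, with the base after TGA left free. It was found for 14 of the 25 subunits (56.0%) and 40.3% of all genes. CCAAT, the box bound by NF-Y, was found for 13 of the 25 (52.0%) and 37.0% of all genes. A match describes the letters of the window and shows no binding.

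The targeted genes and the arrays were checked first. STAT3 read 10.50 and 10.43 (log2 level) in the control arrays, 10.23 and 9.94 in the siRNA arrays, and 10.18 and 9.70 in the PIAS3 arrays. Both transfected groups lay below the controls, by -0.38 ± 0.18 for the siRNA and -0.53 ± 0.18 for PIAS3 (log2 difference ± SE of the fit, n = 2 each), and neither difference passed (limma adjusted p of 0.9998 and 0.254). PIAS3 differed from control by 0.04 ± 0.11 in its own group, and whether its single probe set can read the plasmid's transcript was not tested. PIAS3 replicate 1 stood apart: 12 of 12 measured interferon-stimulated genes were highest in it, at a median of 4.35 above the control mean. Their median was -0.04 in PIAS3 replicate 2, with 3 above both controls and 6 below, against 39.4% and 37.8% of all genes. In siRNA replicate 2 the median was 0.05, with 6 above and 3 below, against 33.7% and 44.0%. Among them OAS1 lay 1.18 above the control mean in each of these 2 arrays. In PIAS3 replicate 1 bright probe sets also read low in general. The 2164 genes at least as bright as the dimmest subunit lay at a median of -0.14 from the control mean there, against values between -0.002 and 0.01 in the other transfected arrays.

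The labelled cell type was checked against marker genes, and the markers differed among themselves. Of 10 epithelial or A549 markers, the keratins KRT18 and KRT8 read 13.60 to 13.79 and 12.39 to 12.62 over the 6 arrays, and the reductases AKR1B10 and AKR1C1 13.62 to 14.04 and 13.68 to 14.06. EPCAM (6.04 to 7.24), the lung factor NKX2-1 (5.60 to 6.02) and the surfactant gene SFTPB (7.07 to 7.20) read far lower. Some of these 10 genes, not all of them epithelial markers, also differed between groups without passing. KRT19 stood at -1.91 ± 0.38, the cadherins CDH1 at 1.09 ± 0.16 and CDH2 at -1.20 ± 0.28 for PIAS3 against control (limma adjusted p of 0.104, 0.0762 and 0.133). Among markers of other cell types the leukocyte genes PTPRC and LYZ read 3.85 to 3.95 and 3.39 to 3.52, but CD3E read 6.63 to 7.09. The fibroblast genes ran from LUM at 2.98 to 3.13 up to COL1A1 at 8.58 to 8.88, and the endothelial genes from KDR at 3.76 to 3.97 up to VWF at 6.19 to 6.57. The part of these marker differences in the subunits' values was not tested.

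Proteasome subunit genes stood low in one array, PIAS3 replicate 1, and close to control in PIAS3 replicate 2. In PIAS3 replicate 1, 29 of the 30 subunits had their lowest value of the 6 arrays, whereas that array was lowest for 30.0% of all genes and for 53.3% of the genes at least as bright as the dimmest subunit. Their median there was -0.25 from the control mean. It was 0.005 in PIAS3 replicate 2 and 0.07 in each STAT3 siRNA array. All 30 subunits read higher in PIAS3 replicate 2 than in replicate 1, by 0.04 to 0.56 and a median of 0.36, where 54.4% of all genes did so. That share was not taken over the genes at least as bright as the dimmest subunit. Their medians were -0.145 in PIAS3 replicate 1 and -0.002 in PIAS3 replicate 2. The size of the low reading depended on scaling. It was -0.16 with quantile normalization again and -0.11 with cyclic loess. With these scalings 22 and 17 subunits were lowest in PIAS3 replicate 1, against 28.1% and 24.6% of all genes. Still below the control mean were 29 and 23 subunits, a share not taken over all genes. The medians of the genes at least as bright were -0.053 and 0.001 in that array. The part of the interferon-stimulated genes and of the bright-signal shift in the subunits' low reading was not tested.

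**Figure D1:**
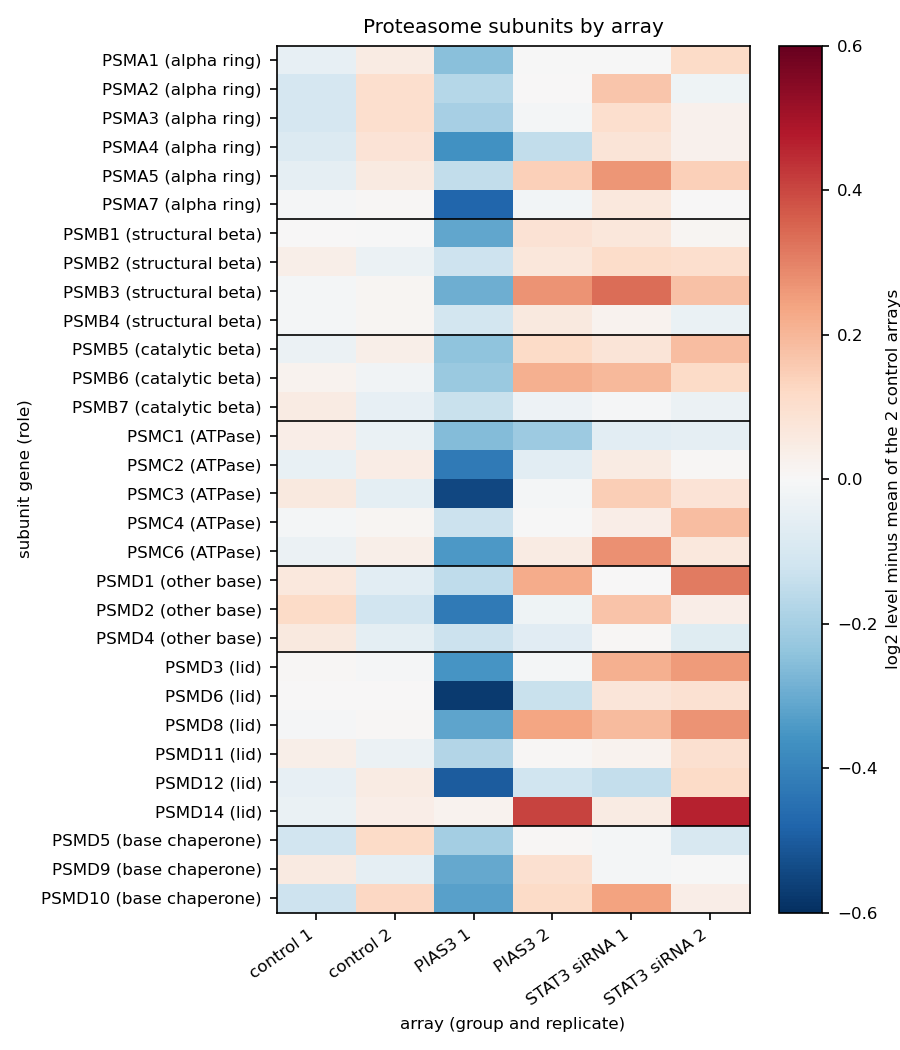
Log2 level of each of the 30 measured subunit genes (rows, grouped by role) in each of the 6 arrays (columns), minus the mean of the 2 control arrays; blue is lower and red higher. The PIAS3 replicate 1 column is blue for 29 subunits, with PSMD14 at 0.02 the exception, and PIAS3 replicate 2 holds both colours.

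**Figure D2:**
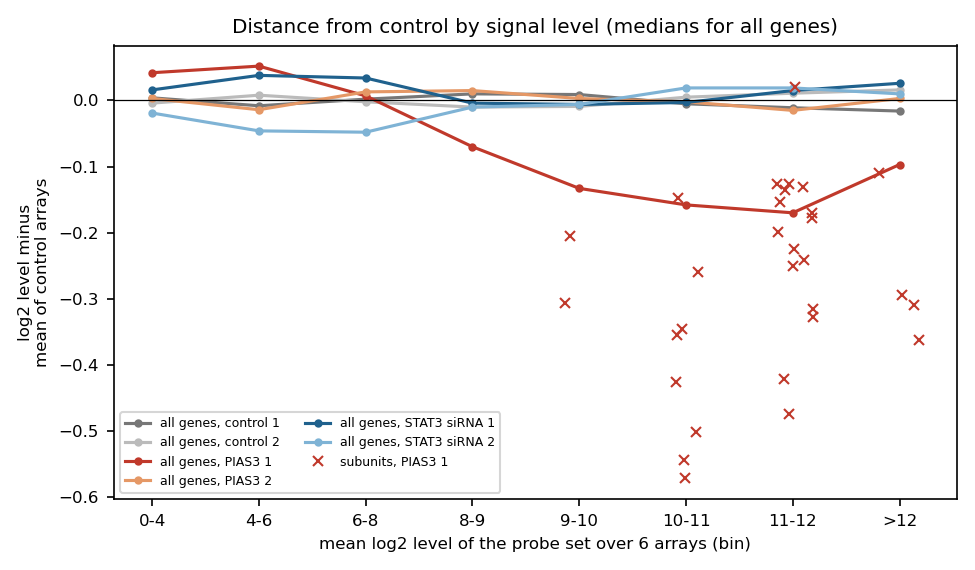
Distance from the control mean on the log2 scale (vertical) against the mean log2 level of the probe set in bins (horizontal); lines join the medians of all genes in each array and crosses are single subunits in PIAS3 replicate 1, spread sideways at random. The line of PIAS3 replicate 1 falls to -0.17 in the bin from 11 to 12, where 16 subunits lie.

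The comparison of PIAS3 with control asks whether the subunit genes differed in cells given the plasmid, and no subunit passed. Of the 30 subunits 0 were called higher and 0 lower by limma at an adjusted p under 0.05, against 0.0334% and 0.092% of all genes. Without adjustment, p under 0.05 was reached by 0 and 0 subunits, against 7.13% and 7.44% of all genes. The smallest adjusted p of a subunit was 0.363. The direction was shared: 28 subunits had a difference below 0, against 50.9% of all genes, and 2 above 0, against 49.1%, with a median of -0.10 beside -0.004 for all genes. Genes of like brightness, which read low in PIAS3 replicate 1, were not counted apart. With quantile normalization again or cyclic loess the split was 20 below and 10 above, with medians of -0.04 and -0.02. Leaving out PIAS3 replicate 1 gave 14 below and 16 above with a median of 0.005, and leaving out PIAS3 replicate 2 gave a median of -0.25 and 1 called subunit, PSMD6, in a fit that called 1232 of all 22215 probe sets. In bulk RNA, fewer cells that express a gene and less RNA per cell cannot be told apart.

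Alpha ring subunits, which form the gate of the core, had a median difference of -0.12 over 6 genes. PSMA4 read 11.74 and 11.96 in the PIAS3 arrays, compared with 12.03 and 12.19 in the controls. Both PIAS3 arrays lay below both controls, and the difference of -0.26 ± 0.12 did not pass (limma adjusted p = 0.421). PSMA7 read 11.07 and 11.53 against 11.53 and 11.55, so that its separation from control rested on the first array, and its other probe set gave -0.32. PSMA5, by contrast, averaged -0.002 from control because its 10.20 and 10.49 lay on either side of 10.29 and 10.40. The remaining alpha subunits PSMA1, PSMA2 and PSMA3 had differences of -0.13, -0.09 and -0.11 with overlapping arrays.

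The beta ring had the subgroup medians closest to 0, with no test between subgroups. Its structural subunits PSMB1, PSMB2, PSMB3 and PSMB4 had a median difference of -0.03, and their PIAS3 arrays overlapped the controls without exception. PSMB3, an inner ring subunit, showed the widest gap of all subunits between the PIAS3 arrays, reading 11.66 and 12.22 around controls of 11.94 and 11.96. The catalytic subunits were close to control as well. PSMB5, which carries the chymotrypsin-like site that bortezomib blocks, read 10.77 and 11.13 in the PIAS3 arrays against 10.98 and 11.05. PSMB6, with the caspase-like site, read 11.33 and 11.77 against 11.58 and 11.53. PSMB7, with the trypsin-like site, read 11.69 and 11.80 against 11.87 and 11.78. Their log2 differences were -0.06 ± 0.14, -0.005 ± 0.15 and -0.08 ± 0.11. The 95% intervals ran from -0.39 to 0.27 for PSMB5, from -0.36 to 0.36 for PSMB6 and from -0.33 to 0.17 for PSMB7.

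ATPases of the regulatory particle, which unfold substrates and open the gate, had the lowest median of the subgroups, -0.24 over 5 genes. PSMC1 read 10.79 and 10.83 in the PIAS3 arrays, compared with 11.08 and 11.004 in the controls. Both PIAS3 arrays were low and close together, as they also were, nearer to control, for PSMD4 at 11.15 and 11.21 against 11.34 and 11.22. Its difference was -0.24 ± 0.10 (limma adjusted p = 0.363). PSMC2 read 10.89 and 11.25 against 11.27 and 11.36, and its dimmer probe set gave -0.35 (unadjusted p = 0.0142, limma adjusted p = 0.225). PSMC3 read 9.80 and 10.33 against 10.40 and 10.28, so its -0.28 ± 0.17 came from replicate 1. PSMC6 read 9.96 and 10.36 against 10.27 and 10.35 and overlapped too. PSMC4 differed by -0.07.

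Among the other base subunits PSMD2, a scaffold that docks shuttle proteins, read 10.16 and 10.56 in the PIAS3 arrays against 10.70 and 10.47, with overlap. PSMD1, its fellow scaffold, stood at 0.03 and the ubiquitin receptor PSMD4 at -0.10. In the lid, PSMD6 gave the most negative difference of all subunits, reading 9.71 and 10.15 against 10.28 and 10.28. Both PIAS3 arrays were low, the first far more so, and the difference of -0.35 ± 0.15 did not pass (limma adjusted p = 0.368). PSMD12 read 9.98 and 10.36 against 10.43 and 10.52, likewise without overlap (-0.31 ± 0.16, limma adjusted p = 0.449). PSMD3 read 9.90 and 10.24 against 10.26 and 10.25, with the second array just under the controls. PSMD8 read 11.14 and 11.69 around controls of 11.45 and 11.46.

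PSMD14, the deubiquitinase of the lid, was the exception in PIAS3 replicate 1. It read 10.98 there, inside the controls' 10.92 and 10.998, and 11.37 in replicate 2. Its difference of 0.21 ± 0.18 was the highest of the subunits and did not pass (limma adjusted p = 0.682). The base assembly chaperones PSMD5, PSMD9 and PSMD10 had differences of -0.10, -0.11 and -0.11 with overlapping arrays. In all, 8 of 30 subunits (PSMA4, PSMA7, PSMC1, PSMC2, PSMD3, PSMD4, PSMD6 and PSMD12) had both PIAS3 arrays below both controls and 0 above, against 23.7% and 22.4% of all genes. That share of subunits, 8 of 30, is near the background.

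**Figure D3:**
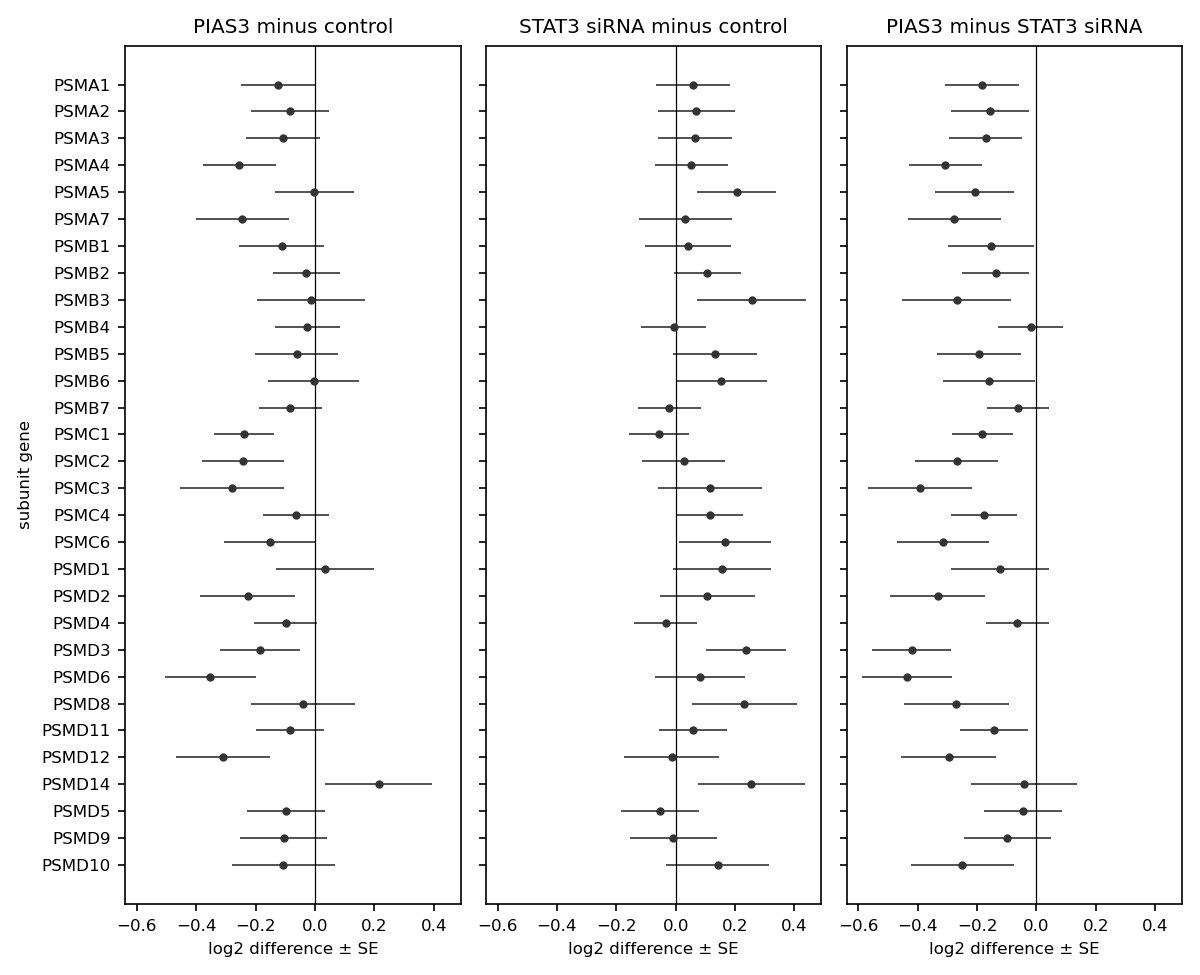
Log2 difference with its standard error (horizontal) for each of the 30 subunits (rows) in the 3 comparisons, from one limma fit of all 6 arrays. Most points lie left of 0 for PIAS3 against control (28 of 30), right of 0 for the siRNA against control (23 of 30) and left of 0 for PIAS3 against the siRNA (30 of 30); none passed at an adjusted p under 0.05.

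The STAT3 siRNA arrays set against control ask whether the siRNA went with other subunit levels, and no subunit passed here either. Limma called 0 of 30 higher and 0 lower, against 0% and 0.00836% of all genes, and without adjustment p under 0.05 was reached by 0 and 0, against 2.32% and 3.06%. The smallest unadjusted p was 0.121 and every adjusted p was 0.9998. These p-values and standard errors use a spread shared by all 3 groups, so the wide PIAS3 pairs enter them. In a limma fit of the siRNA and control arrays alone, 3 subunits were higher and 0 lower at an unadjusted p under 0.05. The share of all genes was not taken in that fit. No subunit passed there either (smallest limma adjusted p of 0.654). Subunits lay slightly above control: 23 were above 0, against 49.5% of all genes, and 7 below, against 50.5%, at a median of 0.08 beside -0.002. That split was 23 and 7 with quantile normalization again, with cyclic loess and with array medians set equal, and the median stayed between 0.06 and 0.09 when single arrays were left out. Both siRNA arrays lay above both controls for 13 subunits, against 19.4% of all genes, and below for 1, PSMC1, against 19.5%.

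Subunits with the smallest p in this comparison came from the alpha ring, the beta ring, the ATPases and the lid. PSMD3, a lid subunit whose promoter holds TTCNNNGAA, read 10.47 and 10.51 in the siRNA arrays and 10.26 and 10.25 in the controls. The pairs were tight and did not overlap, and the difference was 0.24 ± 0.13. PSMA5 read 10.61 and 10.49 against 10.29 and 10.40 (0.21 ± 0.13). PSMB3 read 12.29 and 12.13 against 11.94 and 11.96 (0.26 ± 0.18). These siRNA arrays were all above their controls. PSMD8 read 11.65 and 11.73 against 11.45 and 11.46 (0.23 ± 0.18), and PSMC6 10.58 and 10.37 against 10.27 and 10.35 (0.17 ± 0.15). PSMD14 read 11.01 and 11.42 against 10.92 and 10.998, so its 0.26 ± 0.18 came mainly from siRNA replicate 2, whose level was near that of PIAS3 replicate 2.

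No catalytic subunit passed with the STAT3 siRNA, and their average differences lay on both sides of 0. PSMB5 read 11.09 and 11.20 against control values of 10.98 and 11.05, and PSMB6 read 11.75 and 11.67 against 11.58 and 11.53. Both genes had their siRNA arrays above the controls. PSMB7 read 11.82 and 11.79, between its controls. The log2 differences were 0.13 ± 0.14, 0.15 ± 0.15 and -0.02 ± 0.11, with 95% intervals from -0.20 to 0.46, from -0.21 to 0.51 and from -0.27 to 0.23. For the promoters printed above with TTCNNNGAA, the differences of PSMA2, PSMB5, PSMC4 and PSMD3 were 0.07, 0.13, 0.11 and 0.24 with the siRNA and -0.09, -0.06, -0.07 and -0.19 with PIAS3, and none passed. Over all 30 subunits the medians had the same signs, at 0.08 with the siRNA and -0.10 with PIAS3. Genes with the motif were not compared with subunits lacking it. The siRNA and PIAS3 comparisons with control share the control arrays.

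The direct comparison of PIAS3 with the STAT3 siRNA asks whether the vector and the siRNA left different subunit levels. All 30 subunits were lower on average in the PIAS3 arrays, against 50.4% of all genes, and 0 higher, against 49.6%, with a median of -0.18 beside -0.002, and limma called 0 of them at an adjusted p under 0.05. No gene of the array was called in this comparison, 0% in either direction. At an unadjusted p under 0.05, 3 subunits were lower and 0 higher, against 3.83% and 4.19% of all genes. Both PIAS3 arrays lay below both siRNA arrays for 15 subunits and above for 0, against 17.5% and 17% of all genes. Here too, genes of like brightness were not counted apart. The split became 27 below and 3 above with quantile normalization again and 25 and 5 with cyclic loess, where the medians were -0.12 and -0.09. It rested in large part on PIAS3 replicate 1: without that array 21 were below 0 and 9 above, at a median of -0.05. Without PIAS3 replicate 2 the median was -0.35, and 1 subunit, PSMD6, was called, in a fit that called 544 of all 22215 probe sets.

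The subunits under an unadjusted p of 0.05 were PSMD3, PSMD6 and PSMA4. PSMD3 read 9.90 and 10.24 in the PIAS3 arrays, compared with 10.47 and 10.51 in the siRNA arrays, a difference of -0.42 ± 0.13 (limma adjusted p = 0.607). Here the PIAS3 arrays lay under the controls by little in replicate 2 and the siRNA arrays over them. PSMD6 read 9.71 and 10.15 against 10.36 and 10.38, a difference of -0.44 ± 0.15 (limma adjusted p = 0.607). PSMA4 read 11.74 and 11.96 against 12.19 and 12.13, a difference of -0.31 ± 0.12 (limma adjusted p = 0.609). Next in order of p came PSMC3 (-0.39 ± 0.17), PSMD2 (-0.33 ± 0.16) and PSMC6 (-0.32 ± 0.15). All 5 measured ATPases had both PIAS3 arrays below both siRNA arrays, as had 5 of 6 alpha subunits, 3 of 6 lid subunits, 1 of 4 structural beta subunits, 1 of 3 other base subunits, 0 of 3 base chaperones and 0 of 3 catalytic subunits. The catalytic differences were -0.19 for PSMB5, -0.16 for PSMB6 and -0.06 for PSMB7, with 95% intervals from -0.52 to 0.14, from -0.52 to 0.20 and from -0.31 to 0.19.

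How far the arrays of a group agreed set what could be seen. Over the 30 subunits the typical gap between the arrays of a pair was 0.09 in the controls, 0.08 in the siRNA group and 0.36 in the PIAS3 group (medians of absolute log2 differences). Over all genes the same gaps were 0.09, 0.14 and 0.17. The subunits were thus as tight as other genes in the controls and wider apart in the PIAS3 arrays. In the PIAS3 group the subunits were not compared with genes of like brightness. The widest PIAS3 gaps were those of PSMB3 (0.56), PSMD8 (0.55) and PSMC3 (0.53), and the narrowest those of PSMC1 (0.04), PSMD4 (0.07) and PSMB7 (0.10), all chosen after their values were seen. Standard errors of the fit ran from 0.10 to 0.18 over the subunits.

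Several probe sets were measured for 13 of the subunits, which gave 17 further readings. In the comparison of PIAS3 with control 14 of these 17 had the sign of the brightest probe set, and with the siRNA 10 of 17. The 3 that turned for PIAS3 were further probe sets of PSMB1, PSMD4 and PSMD5, at 0.13, 0.01 and 0.14. These were dim, reading 4.296 to 4.694, 5.251 to 5.585 and 5.144 to 5.456 over the 6 arrays. For 3 subunits (PSMA1, PSMA7 and PSMD4) the name of the brightest probe set ends in _x_at, and for 11 others in _s_at. Both kinds can also read other transcripts, so these values are less certain.

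Other genes of the pathway were taken from a list of 45 symbols, of which 30 were measured. Limma called 0 of the 30 in any of the 3 comparisons at an adjusted p under 0.05. For PIAS3 against control 1 was higher and 2 were lower at an unadjusted p under 0.05, against 7.13% and 7.44% of all genes, and for the siRNA against control 0 and 0, against 2.32% and 3.06%. For PIAS3 against the siRNA the counts were 1 and 4, against 4.19% and 3.83%. Their median difference was -0.05 for PIAS3 against control and 0.02 for the siRNA against control.

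The immunoproteasome subunits, which replace the catalytic beta subunits under interferon, read opposite to them in PIAS3 replicate 1. PSMB9, the counterpart of PSMB6, read 9.15 there and 7.93 in PIAS3 replicate 2, against 7.86 and 7.90 in the controls, with 7.99 and 7.60 in the siRNA arrays. PSMB8, the counterpart of PSMB5, read 9.40 and 8.25 in the PIAS3 arrays, 8.60 and 8.53 for control, with 8.52 and 8.20 in the siRNA arrays. PSMB10, the counterpart of PSMB7, read 8.71 and 8.42, 8.65 and 8.48, and 8.56 and 8.42 in the same order. The first array was thus high for PSMB9 and PSMB8 by 1.28 and 0.83 from the control mean, and for PSMB10 by 0.15. With both PIAS3 arrays the differences from control were 0.67 ± 0.35, 0.26 ± 0.33 and 0.003 ± 0.14 (limma adjusted p of 0.466, 0.815 and 0.996). Without PIAS3 replicate 1 they were 0.05, -0.32 and -0.14. Without PIAS3 replicate 2, PSMB9 and PSMB8 were called higher (limma adjusted p of 0.0209 and 0.0409), in the fit that called 1232 of 22215 probe sets. These readings sit in the array with high interferon-stimulated genes, and the part of those genes in them was not tested.

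**Figure D4:**
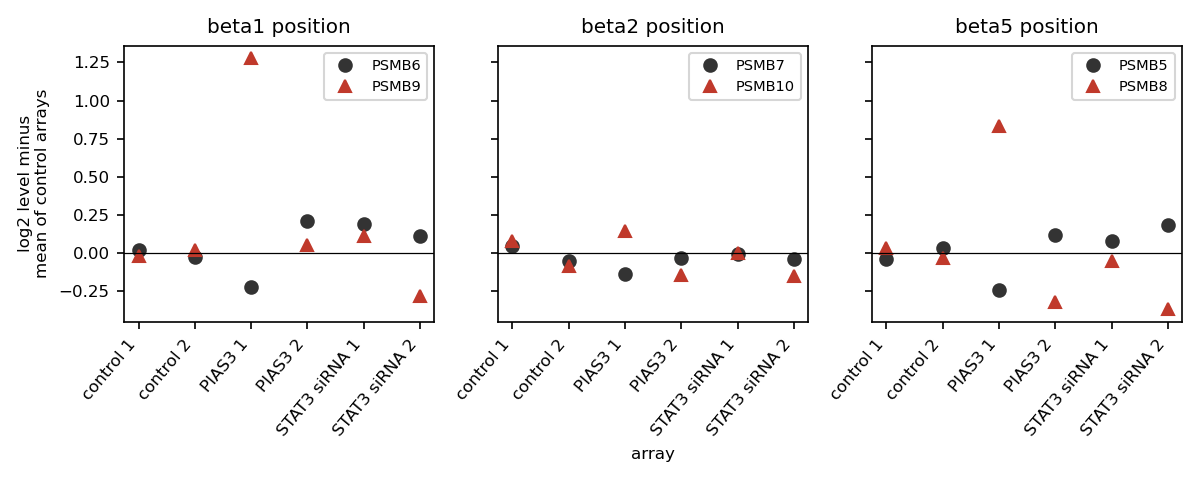
Log2 level minus the mean of the control arrays (vertical) in each of the 6 arrays (horizontal) for each standard catalytic subunit (circles) and its immunoproteasome counterpart (triangles). In PIAS3 replicate 1 PSMB9 and PSMB8 lie at 1.28 and 0.83 while PSMB6 and PSMB5 lie at -0.22 and -0.24; in the other arrays all points lie between -0.37 and 0.21.

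Activators can dock on the core in place of the regulatory particle. PSME3, which forms the nuclear activator ring, read 10.37 and 10.60 in the PIAS3 arrays, 10.89 and 10.97 for control, with 10.85 and 10.96 in the siRNA arrays. Both PIAS3 arrays were low, and its 4 probe sets gave differences from control of -0.45, -0.58, -0.61 and -0.69. The brightest stood at -0.45 ± 0.12 (unadjusted p = 0.00705, limma adjusted p = 0.178), and at -0.33 without PIAS3 replicate 1. PSME1, part of the interferon-inducible activator, read 11.38 in PIAS3 replicate 1 and 11.04 to 11.15 in the other arrays. For PSME4 the probe sets disagreed, at 0.05, -0.27 and 0.37 from control.

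UCHL5, a deubiquitinase bound to the regulatory particle, read 9.08 and 9.47 in the PIAS3 arrays, 9.73 and 9.83 for control, with 9.75 and 9.58 in the siRNA arrays. Both PIAS3 arrays lay below all others, at -0.50 ± 0.15 from control (unadjusted p = 0.0121, limma adjusted p = 0.212), and its other probe set gave -0.58. Without PIAS3 replicate 1 it stood at -0.31, and without PIAS3 replicate 2 at -0.70, which passed in that same fit of many calls (limma adjusted p = 0.0392). The remaining associated genes ADRM1, USP14, SEM1, PAAF1, PSMF1, ECPAS and TXNL1 ranged from -0.24 to 0.09. Of the core assembly chaperones, PSMG1 differed by -0.20, POMP by -0.12 and PSMG2 by 0.06.

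NFE2L1, which raises the subunit genes when proteasome activity is short, read 10.24 and 10.06 in the PIAS3 arrays, 10.21 and 10.11 for control, with 9.90 and 10.19 in the siRNA arrays. Its groups overlapped. NFE2L2, the antioxidant regulator that shares its motif, read 10.63 in PIAS3 replicate 2 and lay 0.77 above the control mean in replicate 1. The remaining levels were 10.22 and 10.24 for control, with 10.25 and 10.58 in the siRNA arrays. It stood at 0.59 ± 0.16 from control with PIAS3 (unadjusted p = 0.00872, limma adjusted p = 0.192) and at 0.40 without PIAS3 replicate 1. Among 8 ubiquitin and delivery genes, UBB, a polyubiquitin gene, read 13.69 to 13.81 over all arrays. UFD1, a cofactor of the unfolding ATPase VCP, read 10.13 and 10.59 for PIAS3, against 10.60 and 10.61 in the controls, with 10.83 and 10.71 in the siRNA arrays.

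RNA quality was read from probe sets at both ends of the actin and GAPDH transcripts. For actin the excess of the 3' over the 5' reading (log2) was 0.43 and 0.28 in the PIAS3 arrays, 0.12 and 0.10 for control, with 0.15 and 0.23 in the siRNA arrays. For GAPDH it was 0.40 and 0.37 in the PIAS3 arrays, 0.36 and 0.29 for control, with 0.29 and 0.40 in the siRNA arrays. The PIAS3 arrays were thus highest for actin, whereas for GAPDH the groups overlapped and siRNA replicate 2 was highest. The part of RNA quality in the subunits' low reading was not tested.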

How the data were processed

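A549 cells were measured on 6 arrays in 3 groups of 2, with groups and replicate numbers from the sample titles. What the authors deposited is 1 log2 value for each probe set and array. The submitters' processing notes name RMA, which corrects background, normalizes arrays and summarises probes, and can shrink small changes. No version of it was found in the labels. Array medians ran from 6.63 to 6.72. Of 22277 probe sets 62 array controls were left out and 22215 tested. The platform annotation gave 19064 of these 1 symbol, 1043 several and 2108 none.

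One limma 3.58.1 fit (R 4.3.3, lmFit and eBayes, two-sided) of all arrays gave the differences, with 3 residual and 4.27 prior degrees of freedom. For each of 3 comparisons the Benjamini-Hochberg adjustment ran over the 22215 probe sets, with a threshold of 0.05. Shares of all genes use 11963 genes by their brightest probe set. The fit was tested on simulated data with larger changes than those of the subunits and like spread in all arrays. That test does not show whether differences as small as the subunits' could be called.

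The members and lists were chosen with earlier results of these data known, so no list was tested. Values of single arrays, not always for every group, were given for subunits picked by rule. These were the 6 subunits of smallest p in each comparison, the catalytic subunits and any whose probe sets differ in sign with one under an unadjusted p of 0.05. The subunits PSMA7 and PSMD4, and the other pathway genes given by array, were chosen after their values were seen. Other settings were leaving out each array, cyclic loess, a second quantile normalization, centring on medians, a replicate block, probe sets above the 40th percentile only, a robust or trended eBayes, fits of 2 groups, probe set means and a threshold of 0.10. After the data were seen, array weights were tried too. Figures used matplotlib 3.10.9 in Python 3.11.15.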

Additional observations from a re-analysis of the deposited data

How the results depend on the processing

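Under the alternatives named above, including those that left out an array, 0 subunits were called in any comparison, apart from 1 subunit, PSMD6, without PIAS3 replicate 2. There it stood at -0.57 from control (limma adjusted p = 0.0429) and -0.66 from the siRNA group (adjusted p = 0.0450). The same fits called 1232 and 544 of all 22215 probe sets, against 22 and 0 with all arrays, so PSMD6 is not singled out by its call. They rest on PIAS3 replicate 1 alone, whose spread was assumed to be that of the other groups. Counts with single arrays left out therefore ranged from 0 to 1 for PIAS3 against control and against the siRNA, and were 0 for the siRNA against control. The subunits' median moved between -0.25 and 0.005 for PIAS3 against control and between -0.35 and -0.05 for PIAS3 against the siRNA as arrays were left out, and between 0.06 and 0.09 for the siRNA against control. Replicate numbers gave no visible pairing of the arrays: replicate differences correlated at 0.09, -0.06 and -0.05 between the groups. Such low values cannot exclude that arrays of the same number were handled together. With a replicate block 0 subunits were called, the medians were -0.10, 0.08 and -0.18, and all probe sets called for PIAS3 against control were 2 in place of 22. Depth is not defined for these arrays, and the table gives no detection call, so no subunit was judged as present or absent.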
